A study of Mus musculus with 12 samples.

Results

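The inner root sheath is the layer of the growing hair follicle that surrounds and moulds the hair shaft, and its cells carry a keratin set of their own. Transcripts of 9 mouse genes were examined: the type I keratins Krt25, Krt26, Krt27 and Krt28, the type II keratins Krt71, Krt72, Krt73 and Krt74, and trichohyalin (Tchh). They were taken by name from the 54232 genes of the count table, and all 9 were found. The 12 libraries came from whole tumors formed by SVR cells, a mouse angiosarcoma line derived from transformed endothelial cells, injected under the flank skin of mice. Mice received daily oral vehicle (control), the MEK inhibitor trametinib at 1 mg/kg, the VEGF receptor inhibitor cediranib at 3 mg/kg, or both drugs (combination), with 3 tumors per group. All groups carried the same allograft. The sample records give the strain as C57BL/6, whereas the study's methods name athymic nude mice 8 to 12 weeks old, whose Foxn1 mutation leaves follicles that make weak, bending hairs. Treatment began 3 to 7 days after injection, and the time of harvest of each sequenced tumor was not stated in any source used here. Host skin and SVR cells are both mouse, so their RNA cannot be told apart, and neither can fewer cells of a type and less RNA per cell.

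Keratin filaments assemble from pairs of 1 type I and 1 type II protein. In the inner root sheath, Krt25, Krt27 and Krt28 are found with Krt71 and appear in all of its layers, whereas Krt26, Krt72 and Krt73 mark its cuticle and Krt74 is known from the Huxley layer in humans. Trichohyalin is a large protein that is deiminated by peptidylarginine deiminases and cross-linked by transglutaminases, and it binds the keratin filaments of the hardened sheath together. The sheath is made only while a follicle is growing, so these genes are quiet in resting skin.

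In GRCm38 the 4 type I genes lie side by side on the minus strand of chr11:99315516-99374903, the 4 type II genes on the minus strand of chr15:101733949-101802346, and Tchh on the plus strand of chr3:93442330-93449077. In GENCODE M21, 8 of the 9 are protein coding and Krt74 is a transcribed unitary pseudogene in the mouse. Tchh is overlapped on the other strand by the lincRNA Gm37245, and since no source used here states whether counting used strand, reads of the pair cannot be told apart. Of all 50-base words in the exons, 10.9% in Krt25, 11.1% in Krt27, 2.41% in Krt28 and 2.43% in Krt74 were shared with another gene, mostly a fellow keratin, so a small share of reads could have been lost or moved between them. Tchh had none.

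Promoter sequence was held in RefSeq (GRCm38.p6) for 8 of the 9 genes, all but Krt74. The 250 bases before the transcript start are shown for the 5 genes that share the motif AGATAA, which include the 4 called in the main comparison, because they show what the coding strand carries ahead of genes that appeared together in the same tumors. They are Krt25 (chr11:99322952-99323201), Krt27 (chr11:99351119-99351368), Krt71 (chr15:101743098-101743347) and Krt73 (chr15:101802361-101802610), all on the minus strand, and Tchh (chr3:93442080-93442329) on the plus strand, each written 5′ to 3′ with AGATAA and, 20 to 40 bases before the start, TATAAA in capitals.
Krt25: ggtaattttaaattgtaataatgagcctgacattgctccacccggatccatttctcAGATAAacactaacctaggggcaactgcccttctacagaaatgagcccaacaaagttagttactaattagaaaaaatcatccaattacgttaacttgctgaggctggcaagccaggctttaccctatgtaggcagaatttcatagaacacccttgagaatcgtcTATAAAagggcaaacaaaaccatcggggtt
Krt27: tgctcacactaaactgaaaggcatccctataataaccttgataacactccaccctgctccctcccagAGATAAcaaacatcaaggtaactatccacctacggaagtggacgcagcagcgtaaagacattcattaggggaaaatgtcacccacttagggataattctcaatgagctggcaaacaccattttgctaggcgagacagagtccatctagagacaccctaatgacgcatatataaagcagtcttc
Krt71: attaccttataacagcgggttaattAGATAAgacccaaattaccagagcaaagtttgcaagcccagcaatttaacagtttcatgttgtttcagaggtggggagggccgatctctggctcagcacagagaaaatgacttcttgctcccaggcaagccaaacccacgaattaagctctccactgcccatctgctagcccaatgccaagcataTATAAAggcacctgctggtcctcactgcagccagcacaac
Krt73: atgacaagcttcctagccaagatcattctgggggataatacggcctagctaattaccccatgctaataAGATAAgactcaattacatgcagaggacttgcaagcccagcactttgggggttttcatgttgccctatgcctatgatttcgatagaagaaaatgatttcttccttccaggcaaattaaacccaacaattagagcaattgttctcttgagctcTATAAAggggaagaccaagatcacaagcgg
Tchh: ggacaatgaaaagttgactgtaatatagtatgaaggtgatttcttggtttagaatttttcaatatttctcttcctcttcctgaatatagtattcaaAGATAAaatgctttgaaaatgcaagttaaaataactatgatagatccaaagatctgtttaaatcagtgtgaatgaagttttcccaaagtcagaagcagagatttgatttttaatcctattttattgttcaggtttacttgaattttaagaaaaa
AGATAA, a core read by GATA factors such as Gata3, a regulator of inner root sheath formation, began 194 bases before the start in Krt25, 183 in Krt27, 225 in Krt71, 182 in Krt73 and 154 in Tchh. On either strand it was present in 5 of the 8 promoters and in 9.99% of 32851 mouse promoters of the same length. TATAAA on the gene's own strand at 20 to 40 bases was present in 5 of the 8 (Krt25, Krt26, Krt28, Krt71 and Krt73) and in 1.99% of all promoters. CTTTGA, the LEF/TCF core, was found on either strand in 2 of the 8 (Krt28 and Tchh) and in 13.8% of all, and the AP-2 motif GCCNNNGGC and the AP-1 motif TGANTCA in none of the 8, against 13.7% and 6.75%. Searches covered both strands except for TATAAA, the opposite-strand CTTTGA of Tchh shares its last bases with AGATAA while no other motifs overlapped, and the motifs were chosen after the promoters had been seen. Krt71 and Krt73 also shared the run TTGCAAGCCCAGCA, at 196 and 154 bases before their starts. A match describes letters in this window only.

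Libraries held 9478865 to 11666094 counts assigned to genes, so 3 counts corresponded to 0.251 to 0.349 CPM (counts scaled to library size and TMM factors). The labels give each library as a separate tumor, and none say whether tumors came from separate mice, so p-values measure only the spread between tumors. The study's methods describe an injection into the flank of each mouse, without matching sequenced tumors to mice. Skeletal muscle transcripts differed widely within groups, and keratinocyte transcripts were high in all combination tumors, in cediranib 1 and cediranib 3, and to a lesser degree in control 1.

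The inner root sheath genes were nearly silent in control and trametinib tumors, present in every combination tumor, and present at the highest level of all in 1 of the 3 cediranib tumors. Summed over the 9 genes, control tumors 1, 2 and 3 held 1, 11 and 10 counts. The trametinib tumors held 4, 7 and 3 counts, and cediranib 1 and cediranib 2 held 4 and 5. Against these few counts, combination tumors 1, 2 and 3 held 3260, 2145 and 4757 counts, and cediranib 3 held 6258. Normalized, the sums were 329, 194.7 and 441.5 CPM in the combination tumors and 598.9 CPM in cediranib 3, and 0.0852 to 1.12 CPM in the other 8 tumors. Cediranib 3 alone supplied 99.86% of the counts of its group, so the cediranib group mean of every gene below is in effect the value of that tumor.

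Krt71, the main type II keratin of the sheath, was the most abundant of the 9. It had 1, 6 and 8 counts in control tumors, 1, 0 and 0 in trametinib tumors, 1, 2 and 3710 in cediranib tumors, and 2106, 1209 and 2903 in combination tumors. The combination levels were 213, 109.8 and 269 CPM, and cediranib 3 reached 355.0 CPM. The combination tumors did not overlap the control or trametinib tumors, while the cediranib group spanned both states. Krt73, a cuticle keratin, had 0, 1 and 0 counts in control, 0 in each trametinib tumor, 0, 1 and 425 in cediranib, and 249, 183 and 359 in combination tumors (25.2, 16.6 and 33.3 CPM). Krt72, its neighbour in the cuticle, had 0 counts in each control tumor, 0, 0 and 2 in trametinib, 0, 1 and 175 in cediranib, and 55, 76 and 107 in combination tumors (5.56, 6.90 and 9.93 CPM). Both cuticle genes followed the order of Krt71 in that cediranib 3 was highest, at 40.7 CPM for Krt73 and 16.8 CPM for Krt72. Krt74, the pseudogene, stood apart, with 4, 1 and 5 counts in combination tumors, 0, 2 and 0 in trametinib tumors and 0 in all others. Cediranib 3, with the most Krt71, held none of it, which allows up to 3 counts there.

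Krt25, the leading type I keratin, had 0, 3 and 1 counts in control tumors, 1, 5 and 0 in trametinib tumors, 1, 0 and 1168 in cediranib tumors, and 572, 476 and 830 in combination tumors. Its combination levels were 57.8, 43.2 and 77.0 CPM, below the 111.8 CPM of cediranib 3, and again no control or trametinib tumor overlapped them. Krt27, a partner of Krt71 in the same layers, had 0, 1 and 1 counts in control, 0, 0 and 1 in trametinib, 2, 1 and 396 in cediranib, and 132, 98 and 242 in combination tumors (13.3, 8.90 and 22.5 CPM). Krt28 had 0 counts in all control and trametinib tumors, 0, 0 and 39 in cediranib, and 7, 5 and 22 in combination tumors. Krt26, the type I keratin of the cuticle, was the lowest of the block, with 6, 3 and 20 counts in combination tumors, 12 in cediranib 3, 1 in trametinib 1 and 0 in the other 7. It was the one gene other than Krt74 for which combination 3, at 1.86 CPM, exceeded cediranib 3, at 1.15 CPM.

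Trichohyalin behaved like the keratins although it lies on another chromosome and belongs to another protein family. Tchh had 0 counts in each control tumor, 1, 0 and 0 in trametinib, 0, 0 and 333 in cediranib, and 129, 94 and 269 in combination tumors. The combination levels were 13.0, 8.53 and 25.0 CPM, and cediranib 3 reached 31.9 CPM. Within the combination group, tumor 3 was highest and tumor 2 lowest for Tchh, Krt25, Krt26, Krt27, Krt28, Krt71 and Krt73, whereas for Krt72 tumor 1 was lowest and Krt74 was too sparse to order.

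**Figure D1:**
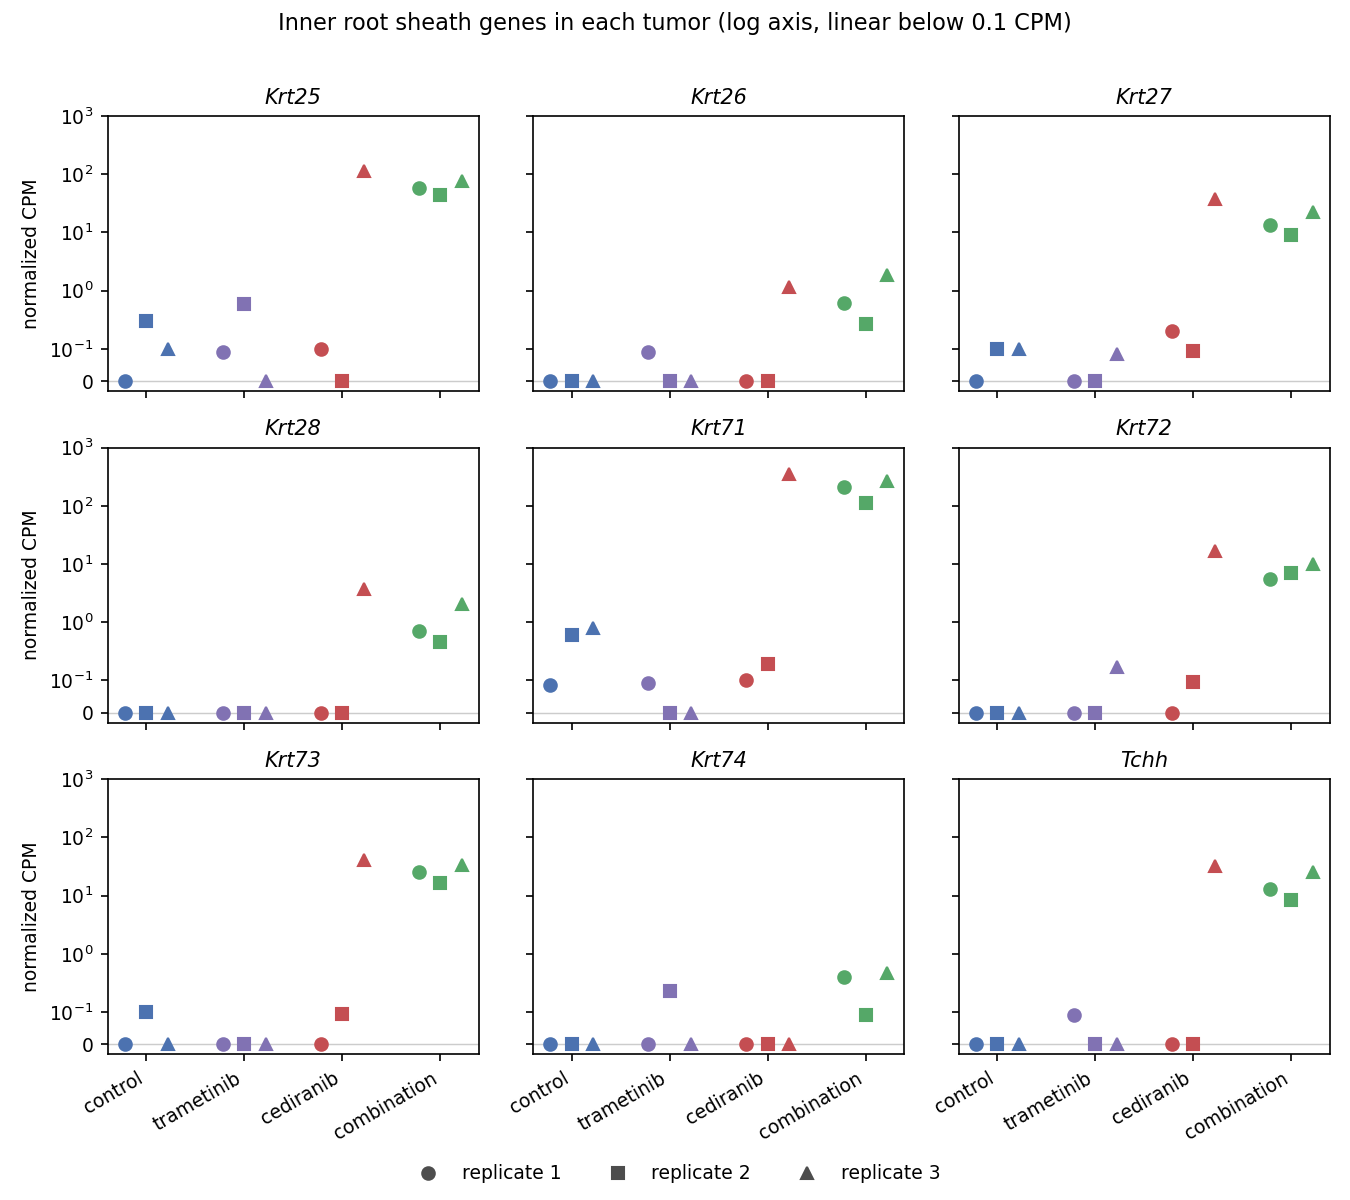
Normalized CPM (vertical, log axis that is linear below 0.1) of each of the 9 genes in the 12 tumors, grouped by treatment (horizontal), with 1 symbol per tumor and the replicate given by its shape. The 3 combination tumors and cediranib 3 lie above all other tumors for 7 of the 9 genes, and far above for these except Krt28, of which combination 2 holds 5 counts. For Krt26 the lowest of them, combination 2, holds 3 counts against 1 in trametinib 1, and for Krt74 cediranib 3 lies at 0.

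The combination tumors were compared with control tumors, the comparison that sets both drugs against vehicle. Krt25, Krt27, Krt71 and Krt73 were called higher by edgeR's quasi-likelihood test, a call being a Benjamini-Hochberg adjusted p of at most 0.05 over 12897 tested genes with a log2 fold change of at least 1.5 in size. The background was 1.91% of tested genes called higher. The fitted log2 fold changes were 8.65 ± 2.26 (SE) for Krt71, 8.73 ± 2.31 for Krt25, 7.62 ± 2.05 for Krt27 and 9.16 ± 2.50 for Krt73, with edgeR adjusted p of 0.0339, 0.0351, 0.0375 and 0.0465. Krt72 (9.29 ± 2.68) and Tchh (10.35 ± 3.00) were tested and missed the threshold, with edgeR adjusted p of 0.0552 and 0.056. Krt26, Krt28 and Krt74 did not pass the filter on low counts, and the 6 tested genes passed it only through the combination tumors and cediranib 3, so the share called among them is no support by itself. The cediranib group, which shared the spread of this fit, held 2 tumors near 0 and 1 at the top. Without cediranib 1, 2 or 3, all 6 were called, and without any 1 control or combination library, 0 were called.

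In plain counts the differences were large. Krt71 was 412-fold higher in combination than in control tumors (95% counting interval 249.7 to 737, from 6218 against 15 counts), and Krt25 was 467-fold higher (182 to 1715, from 1878 against 4). For Krt27 and Krt73 the control group held 2 counts and 1 count, and the ratios of 235 (64.6 to 1943) and 786 (141 to 31100) are accordingly loose. The other 5 genes had no count in any control tumor, so against 3 counts over the group they were at least 163-fold higher for Tchh, 78.9-fold for Krt72, 11.3-fold for Krt28, 9.61-fold for Krt26 and 3.31-fold for Krt74. The intervals cover counting error only. Every combination tumor was above every control tumor for all 9 genes, 6 of them tested, against a background of 15.6% of tested genes with the same separation. Since the 6 passed the filter only through the combination tumors and cediranib 3, this share is no support by itself.

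Against trametinib alone, the comparison that asks what cediranib adds, each combination tumor was above each trametinib tumor for 8 of the 9 genes. Krt74 overlapped, and of the other 8, 6 were tested, the background being 12.4% of tested genes. Those 6 passed the filter only through the combination tumors and cediranib 3, so this share is no support by itself either. Krt71 had 6218 counts against 1, Krt25 1878 against 6, Krt73 791 against 0 and Tchh 492 against 1. The Krt25 difference amounted to 312-fold (142.9 to 850.3), and that of Krt73 to at least 262.5-fold. The 6 tested genes had fitted log2 fold changes of 6.65 (Krt72) to 12.14 (Krt71), but edgeR's quasi-likelihood test called 0 of the 6, with Benjamini-Hochberg adjusted p of 0.0724 to 0.14. The background was 0.535% called higher. All 6 had an unadjusted edgeR p under 0.05, DESeq2 called 4, and edgeR's likelihood ratio test called 6. Leaving out cediranib 1, 2 or 3, tumors of neither group, raised the quasi-likelihood count to 1, 4 or 6.

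With cediranib alone, 1 tumor carried the sheath genes and the other 2 did not. Fitted log2 fold changes against control ran from 7.40 (Krt27) to 9.80 (Tchh), with 0 of the 6 called by edgeR's quasi-likelihood test (adjusted p of 0.999 for each) and a background of 0% called. All 6 had an unadjusted edgeR p under 0.05, DESeq2 called 1 and the likelihood ratio test 0. Without cediranib 3, the fitted differences of Krt25 and Krt71 turned to -1.21 and -1.65. Those of Krt27, Krt72 and Krt73 fell to 1.05, 2.34 and 0.46, and Tchh then had no count in either group. Set against the combination group, cediranib differed by 0.23 (Krt27) to 0.88 (Krt73) log2 lower, each less than its SE of 1.19 to 1.43. None of the 6 was called by edgeR, DESeq2 or the likelihood ratio test, none had an unadjusted edgeR p under 0.05, and the background was 1.29% called higher in the combination. Without cediranib 3 all 6 were called higher in the combination tumors.

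Between trametinib and control tumors any difference in the sheath genes involved few counts. Krt71 went from 15 counts in control to 1 in trametinib tumors, a ratio of 15 (2.31 to 632), and Krt25 from 4 to 6 counts. All other genes had 2 counts or fewer in both groups, where no fold can be given. None of the 6 tested was called by edgeR's quasi-likelihood test (adjusted p of 0.796 to 0.959), against backgrounds of 0.977% called higher and 1.43% lower. None had an unadjusted edgeR p under 0.05, and the likelihood ratio test called 0. DESeq2 called 2, 1 of them higher, with fitted log2 fold changes of -15.37 to 15.27 over the 6. Those 2 calls rest on the few counts above. In trametinib against cediranib tumors, edgeR called Krt71 lower (log2 fold change -11.41 ± 3.00, adjusted p = 0.0361) and Krt27 lower (-8.20 ± 2.23, adjusted p = 0.0417), against 1.97% of genes called lower, and 0 of the 6 were called without cediranib 3. The interaction term, which tests whether the cediranib effect differed with and without trametinib, gave 0 calls of 6 (smallest edgeR adjusted p of 0.906, no unadjusted p under 0.05, background 0%), while DESeq2 called 1 and the likelihood ratio test 0. Comparisons against the same control or cediranib tumors share those libraries.

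**Figure D2:**
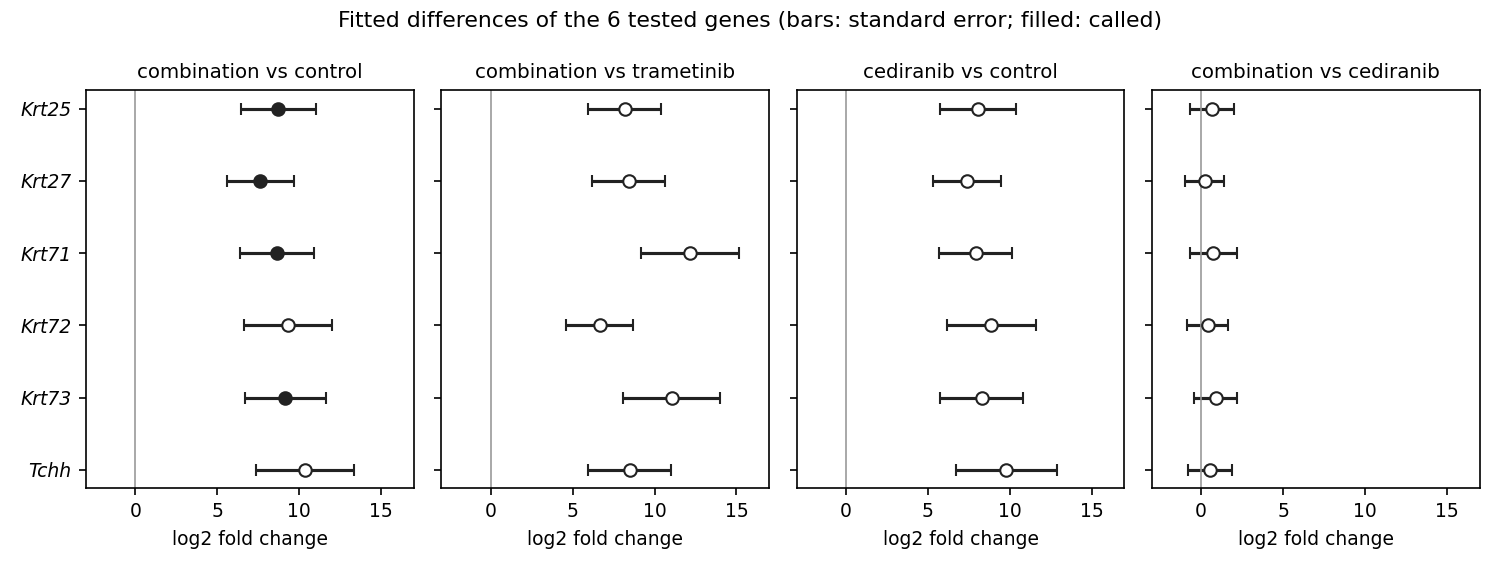
Fitted log2 fold change (horizontal) with its standard error (bars) for the 6 tested genes in 4 comparisons of 3 tumors against 3, filled points being called. Differences of the combination from control and trametinib tumors and of cediranib from control lie between 6.65 and 12.14, and those between combination and cediranib tumors between 0.23 and 0.88.

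Where the sheath genes were present, Krt71 and Krt25 led in every tumor and the shares of the minor genes varied more. Divided by gene length, the combination tumors held 90.3 ± 37.0 CPM per kb of Krt71 (SD, n = 3), 29.8 ± 8.53 of Krt25, 11.5 ± 3.85 of Krt73, 9.61 ± 4.46 of Krt27, 3.74 ± 1.12 of Krt72 and 2.66 ± 1.46 of Tchh. Krt28, Krt26 and Krt74 followed at 0.657 ± 0.525, 0.249 ± 0.228 and 0.194 ± 0.122 CPM per kb. In this order Krt71 and Krt25, Krt25 and Krt73, Krt27 and Krt72, and Tchh and Krt28 did not overlap across the 3 tumors, whereas the other 4 pairs of neighbours did. Compared within each tumor, Krt73 was above Krt27, Krt72 above Tchh and Krt28 above Krt26 in all 3, and Krt26 above Krt74 in 2. Capture probes differ between genes, so levels per length compare genes only roughly. As shares of the summed level per length, Krt71 made up 63.8%, 55.4% and 60.7% in combination tumors 1, 2 and 3, and 58.4% in cediranib 3. Krt25 made up 19.1%, 24.0% and 19.1% there and 20.2% in cediranib 3. Over these 4 tumors Krt73 ranged from 6.74% to 8.45%, Krt27 from 5.64% to 8.79%, Tchh from 1.47% to 2.11% and Krt72 from 1.83% to 3.82%. The sparsest genes varied most, Krt28 from 0.286% to 0.826%, Krt26 from 0.0819% to 0.249% and Krt74 from 0% to 0.161%. The type I share of all sheath keratin lay between 25.5% and 31.2% in these 4 tumors. Cediranib 3 differed in order at 1 place, with more Krt27 (24.5 CPM per kb) than Krt73 (18.8).

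**Figure D3:**
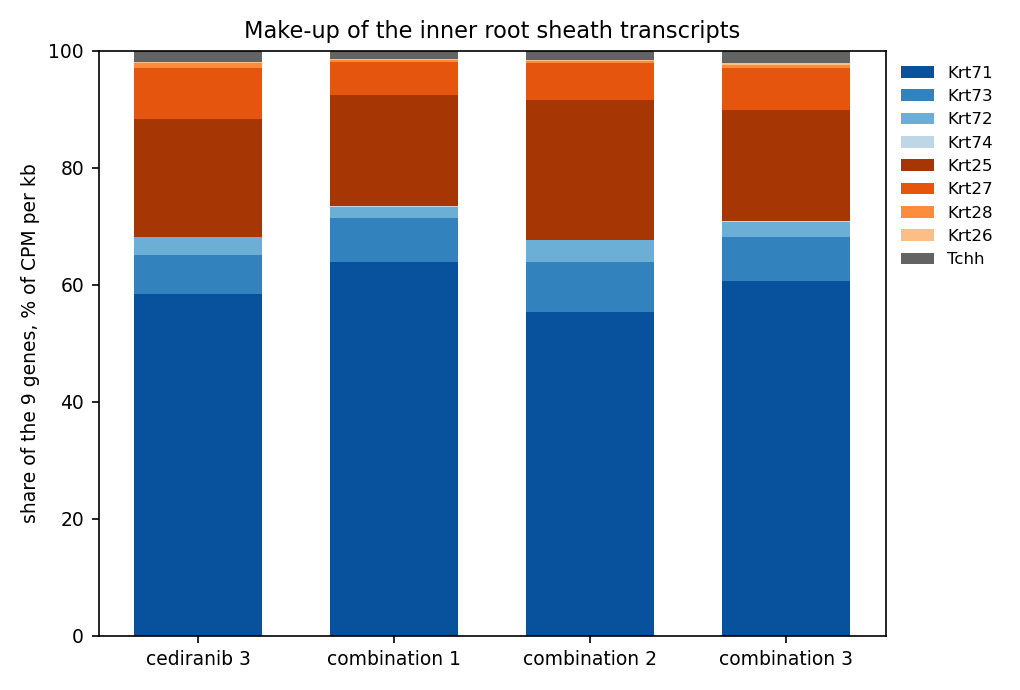
Share of each gene (percent of the summed CPM per kb of the 9 genes, vertical) in cediranib 3 and the 3 combination tumors (horizontal), type II keratins in blue, type I in orange and Tchh in grey. Krt71 takes 55.4% to 63.8% and Krt25 19.1% to 24.0% of every bar.

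Other skin and follicle genes were read in the same tumors to see what came with the sheath genes. Hair shaft keratins, the hard keratins of the fibre itself, were found in the same 4 tumors. Of 13 listed, 12 were in the table, and these summed to 137, 52.7 and 193 CPM in combination tumors, 0.200, 2.65 and 244 CPM in cediranib tumors, and 0 to 3.54 CPM in control and trametinib tumors. Of the 11 tested, 1 was called higher against control by edgeR (Krt34, log2 fold change 8.20 ± 2.18, adjusted p = 0.036) and none lower. Krt34, a shaft keratin, had 27.1, 11.5 and 28.1 CPM in combination tumors and 33.4 in cediranib 3, and Krt81 had 15.6, 5.99 and 34.0 CPM and 42.2 in cediranib 3. Both were at 0 in cediranib 1 and cediranib 2.

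Outer root sheath and companion layer genes split the tumors differently. These are the keratins of the layers outside the inner sheath, and most of them are also made by basal or activated epidermis. The 6 outer root sheath genes summed to 2760, 4019 and 2880 CPM in combination tumors, 2742, 79.8 and 1723 in cediranib tumors, 672.5, 111.3 and 100.6 in control tumors, and 32.9 to 109.9 in trametinib tumors. In cediranib 1 this sum was thus close to that of combination 1, with only 4 counts of the inner root sheath genes. In cediranib 1 and cediranib 3 the sum is mostly Krt14 and Krt5, which basal epidermis also makes. Krt5 made up little of the low sums of control 2 and control 3, at 1.52 and 0.303 CPM. Krt14, the type I keratin of basal keratinocytes, was at 1694 CPM in cediranib 1 and 821 in cediranib 3, and Krt5, its partner, at 942 and 701.7 CPM. The other 4 genes of the list were named after their values were seen, and of these Krt15 and Lhx2 matched less closely. Krt15 was at 38.7 CPM in cediranib 1 against 76.9 in combination 1, and Lhx2, a follicle stem cell factor, at 0.20 against 1.52 CPM. Sox9 and Lgr5 were not called against control, with log2 fold changes of -1.26 ± 0.47 and -1.13 ± 0.69 in the combination. Per 100 CPM of outer root sheath transcripts, the inner root sheath genes held 0.0146 CPM in cediranib 1 and 34.8 CPM in cediranib 3, against 11.9, 4.85 and 15.3 CPM in combination tumors. Control 1 showed the same split at a lower level, with 266 CPM of Krt14 and 1 count over the 9 genes, or 0.0127 CPM per 100. Against control tumors, 2 of the 6 tested genes of the list (Krt15 and Lhx2) were called higher in the combination and none lower. The 5 companion layer genes summed to 2475 CPM in cediranib 1, 1020 in cediranib 3, 1479 to 2561 in combination tumors and 183 in control 1, with 0 of 5 called against control by edgeR. Krt6b, with 812.5 CPM in cediranib 1 and 301 in cediranib 3, and Krt17, with 702.5 and 362.9 CPM, led that list.

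**Figure D4:**
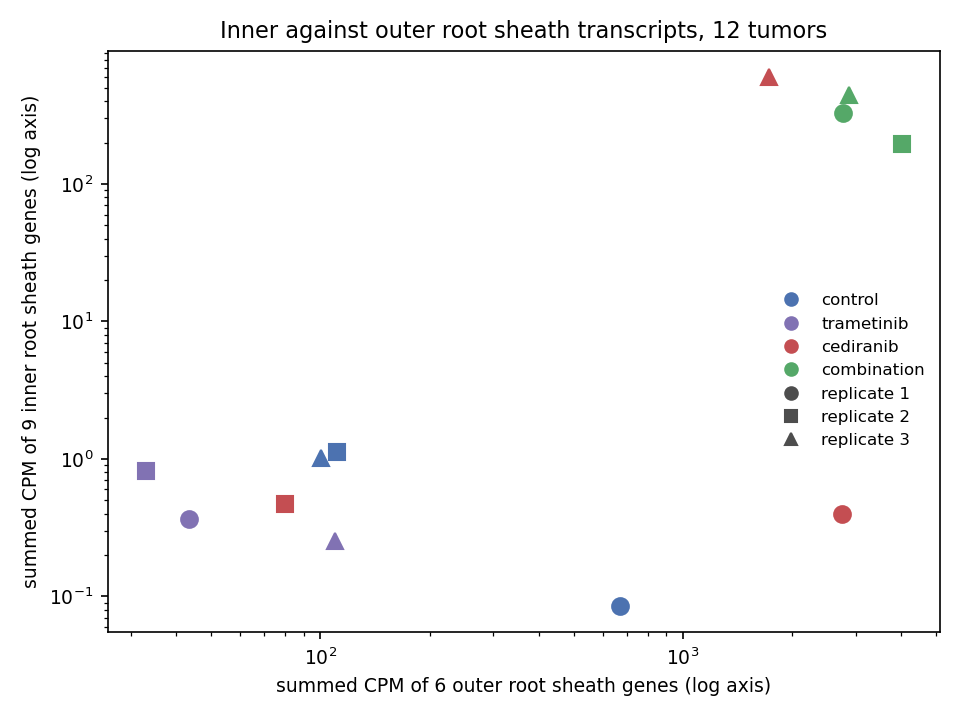
Summed CPM of the 9 inner root sheath genes (vertical, log axis) against that of 6 outer root sheath genes (horizontal, log axis), 1 point per tumor, colored by treatment and shaped by replicate. The combination tumors and cediranib 3 lie at the upper right, while cediranib 1, at 2742 CPM of outer root sheath transcripts, lies at the lower right with 0.40 CPM of inner root sheath transcripts.

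Genes of the interfollicular epidermis, the stratified skin between follicles, had their highest sum in combination tumors, though not every gene did. The 7 genes summed to 167, 304 and 225 CPM in combination tumors, 98.2, 37.3 and 121.9 in cediranib tumors, 18.8 to 73.2 in control and 1.75 to 8.21 in trametinib tumors. Krt10, the type I keratin of suprabasal epidermis, was at 43.0 CPM in cediranib 1 and 64.0 in cediranib 3, and Lor, a protein of the cornified envelope, at 22.1 and 17.4 CPM. Of the 5 tested, 1 (Lor) was called higher in combination than in control tumors by edgeR and none lower. Ivl (involucrin, a cornified envelope precursor, named after its values were seen) went the other way, with 4.85, 7.26 and 5.38 CPM in combination tumors, 7.15, 33.9 and 12.6 in control, 11.6, 33.0 and 13.6 in cediranib and 0 in each trametinib tumor. Its log2 fold change against control was -1.61 ± 0.57 and was not called (edgeR adjusted p = 0.104). The part of skin carried along with the tumor in the sheath result was not tested. The defining shaft and inner sheath genes were at or near 0 in cediranib 1, where Krt14, Krt5 and Krt10 were not.

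Among other cell types, sebaceous gland genes were low, with the highest sum in combination 3. The 4 genes summed to 2.53, 1.09 and 7.24 CPM in combination, 2.20, 0.0946 and 1.63 in cediranib, 1.62, 0.304 and 0.101 in control, and 0.335 to 0.454 in trametinib tumors. Awat1, a wax synthase and the 1 gene tested, was at 5.48 CPM in combination 3 and had log2 fold changes of 7.87 ± 2.09 against trametinib and 3.63 ± 1.33 against control, neither called (edgeR adjusted p of 0.0941 and 0.114), with Scd3 the next highest of the list. Melanocyte genes, led by Tyrp1 and Pmel, were at 2.30 CPM or less in sum, and none passed the filter. Adipocyte genes, led by Plin1 and Fabp4, stayed at 9.08 CPM or less, with 0 of 2 tested genes called. Skeletal muscle genes ranged from 5.05 CPM in control 3 to 21520 in trametinib 2, with Myh4 and Acta1 on top and 0 of 5 called, and both muscle-rich tumors (control 2 and trametinib 2) held few sheath counts. The 4 dermal papilla genes summed to 11.5 to 20.6 CPM in combination tumors and 1.17 to 10.4 CPM in the other groups, where Crabp1 was highest in cediranib 1 (10.2 CPM). Rspo3, a WNT agonist among them, was called higher than in control (log2 fold change 4.62 ± 0.75, edgeR adjusted p = 0.00473), and it was at 0 in cediranib 3. Endothelial genes, the identity of the SVR line and of vessels, summed to 63.2, 27.1 and 64.7 CPM in combination tumors and 176.8 to 364 CPM in control tumors, and 4 of 5 were called lower, against 1.71% of all tested genes. Tie1 and Cdh5 had log2 fold changes of -2.43 ± 0.51 and -2.37 ± 0.53, with edgeR adjusted p of 0.0131 and 0.0173. Trametinib tumors, in which the sheath genes were nearly silent, were low as well, at 40.3 to 98.0 CPM, with 3 of 5 (Pecam1, Cdh5 and Tie1) called lower against control, and cediranib tumors held 104 to 278 CPM.

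**Figure D5:**
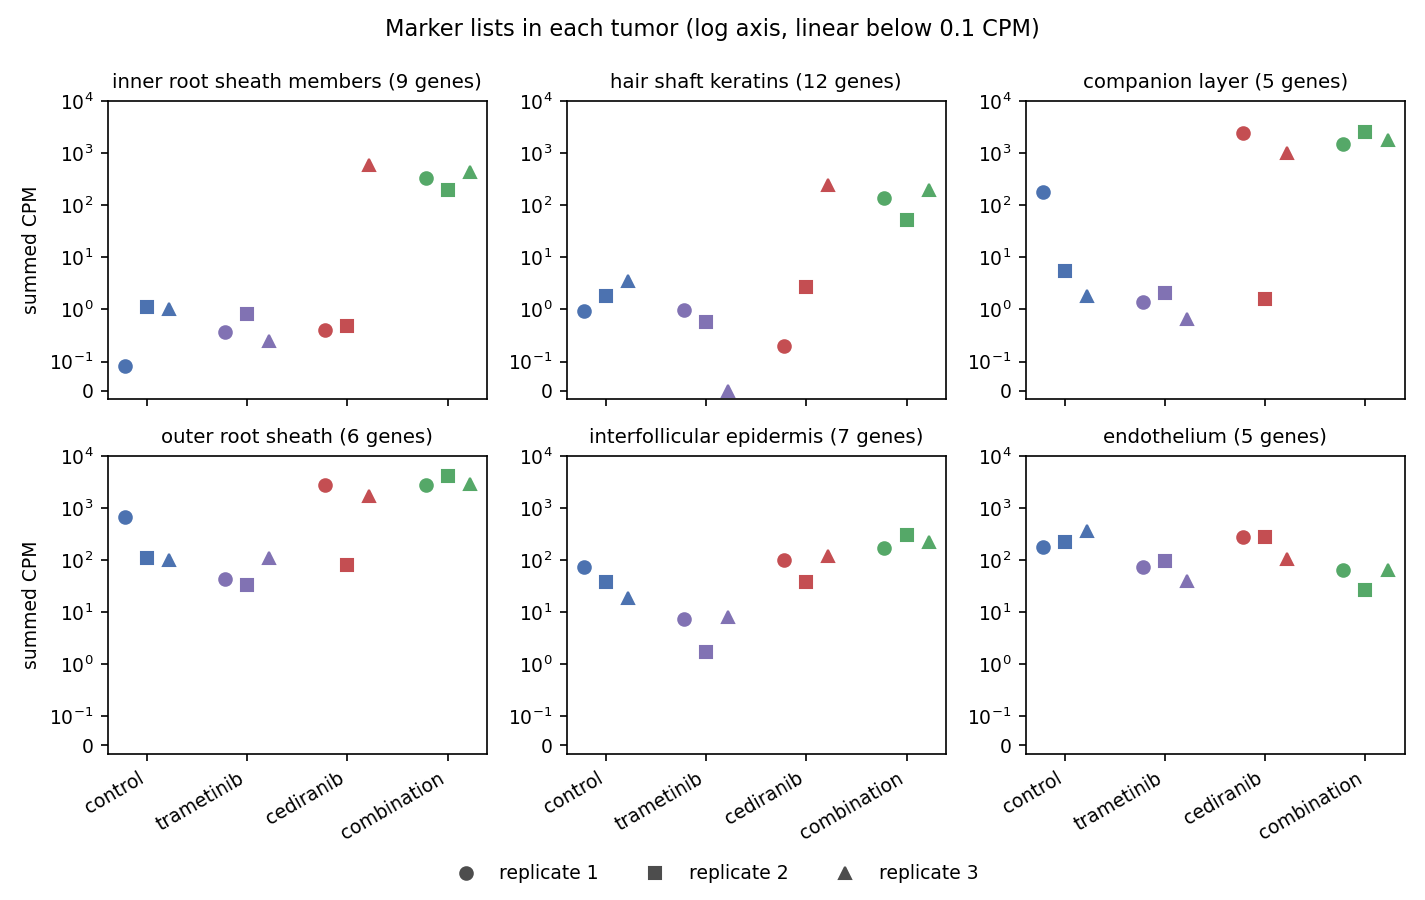
Summed CPM (vertical, log axis that is linear below 0.1) of 6 marker lists in the 12 tumors by treatment (horizontal), shaped by replicate. Inner root sheath and hair shaft lists are high in the combination tumors and cediranib 3, whereas companion layer and outer root sheath lists are high in cediranib 1 as well.

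Of the enzymes that modify trichohyalin, 3 of 5 listed were tested and 1 was called higher in combination than in control tumors, none lower. This was Tgm3, the epidermal and follicular transglutaminase, at 3.74, 6.99 and 3.43 CPM against 0.170, 0 and 0 (log2 fold change 5.99 ± 1.30, edgeR adjusted p = 0.0202). Tgm1, the keratinocyte transglutaminase, was at 5.66, 12.7 and 9.65 CPM against 1.70, 1.82 and 3.94, with an edgeR adjusted p of 0.0534. Unlike Tchh itself, both were present in cediranib 1, at 2.7 CPM for Tgm3 and 8.19 CPM for Tgm1. Of the 6 relatives of trichohyalin in the S100 fused-type family, 3 were tested and 0 were called by edgeR. Flg2 and Rptn were the highest, and Rptn was at 3.20 CPM in cediranib 1 and 2.01 in cediranib 3. Of 12 regulators of follicle growth and differentiation, 9 were tested, 4 were called higher and 0 lower. Dlx3, a homeobox gene needed for hair and sheath differentiation, rose from 4.0, 2.84 and 1.31 CPM in control to 29.1, 42.9 and 28.0 in combination tumors (3.60 ± 0.52, edgeR adjusted p = 0.00265). It stood at 29.5, 32.7 and 28.8 CPM in trametinib tumors too, where sheath genes were nearly absent. Cux1 was between 147 and 279.6 CPM in all 12 tumors and was not called.

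Every gene next to the sheath genes with more than 20 counts in all was also present in cediranib 1. Beyond the type I block, Smarce1, a chromatin remodelling subunit, lay between 137 and 215 CPM in all tumors, Krt222 and Krt24 had 3 counts each over the series and Krt12 had 1. Krt10 and Gm11940 on the other side were at 43.0 and 15 CPM in cediranib 1, where Krt25 was at 0.0999 CPM. The type II block is flanked by Krt6a, Gm44323 and Krt5, at 521, 208 and 942 CPM in cediranib 1, and by Krt2 (20 counts in all), Krt1 and Krt77 (9.79 and 30.8 CPM there), while Krt71 was at 0.0999 CPM. Gm11940 lies within the span of Krt10 and Gm44323 within that of Krt5, so their counts may not be separate from those of these keratins. Next to Tchh, Gm37857 and Gm5278 had 1 count each, Rptn was at 3.20 CPM in cediranib 1, Tchhl1 had 7 counts in all, found in cediranib 3, combination 1 and combination 3, and S100a11 and S100a10 were found in every tumor, at 3.90 to 11 and 39.5 to 67.1 CPM.

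The tested genes most like the mean log2 CPM of the 9 genes over the 12 tumors were shaft genes. By Pearson r they were Gm11595 (0.997), Krt35 (0.994), Krt34 (0.992), Krtap4-6 (0.99), Krtap8-1, Krtap6-5 and Krtap3-3 (0.987 each), Krt81 (0.983), Krt33a (0.979) and Dsg4 (0.974). Krt35 is an early shaft keratin, the Krtap genes encode the matrix proteins between shaft keratins, and Dsg4 is a desmosomal cadherin of the shaft. Of 12891 genes compared, 27 had r above 0.9. The tumors fall into a low and a high set in these genes, share libraries and scaling, and r here reflects little more than that separation. Krt35 had 26.9, 7.81 and 34.0 CPM in combination tumors, 25.5 in cediranib 3 and 0 in cediranib 1 and cediranib 2.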

How the data were processed

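RNA of whole SVR tumors was captured by exome probes and sequenced as 50-base read pairs. The authors deposited 1 table of raw counts per gene, made with STAR 2.7.1a in 2 passes on GRCm38 and featureCounts 1.6.0. No source used here states the treatment of multimapped reads or strand, or the annotation release. Gene lengths from that table gave levels per kb. Counts of the 12 libraries (9478865 to 11666094 in total) were filtered with filterByExpr (12897 of 54232 genes kept), scaled by TMM and tested in 1 fit with edgeR 4.0.16 (quasi-likelihood test, R 4.3.3), calls needing a Benjamini-Hochberg adjusted p of at most 0.05 and a log2 fold change of at least 1.5 in size. The procedure was tested on simulated data. The fold changes set there were smaller than those of the sheath genes, and no group was made to split into high and low tumors. The members and lists were chosen with earlier results of these data known. Named genes were the 9 members, the 2 genes of each list with the highest mean CPM, the 10 tested genes with the highest correlation, and the 3 nearest genes with a count on each side. Other genes were chosen after their values were seen, namely Gata3 beside its motif, Ivl, Krt15, Lhx2, Sox9, Lgr5, Pecam1 and those of the closing section. Ratios of summed counts have exact 95% counting intervals. DESeq2 1.42.0 and other settings were alternatives. Replicate numbers did not pair the tumors.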

Additional observations from a re-analysis of the deposited data

How the results depend on the processing

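Every call on the sheath genes depended on how the spread was estimated, and the depth (3 counts being 0.251 to 0.349 CPM) allowed no fold below the 1 to 11 counts of the low tumors. Of 6 genes, 4 were called for combination against control, and the count was 5 without TMM factors and 6 with DESeq2, the likelihood ratio test or the 2 groups only, but 0 with robust estimation. With all 29102 genes and no filter, where all 9 could be tested, counts were 8 for combination against control, 8 against trametinib, 7 for cediranib against control, 7 for trametinib against cediranib, 1 for trametinib against control and 1 for the interaction. The smallest edgeR adjusted p of the unfiltered fit was 4.37e-193 for cediranib against control, where cediranib 1 and cediranib 2 were near 0. Its calls therefore do not reflect the spread between tumors. DESeq2 called 4 for combination against trametinib, 4 for trametinib against cediranib, 2 for trametinib against control, 1 for cediranib against control and 1 for the interaction. The likelihood ratio test called 6 for combination against trametinib and 6 for trametinib against cediranib, and the 2 groups alone gave 6 for combination against trametinib. Robust estimation called 0 for trametinib against cediranib. With the replicate block, counts were 6 for combination against control, 1 for combination against trametinib and 1 for trametinib against cediranib, and unchanged elsewhere, but same-numbered tumors deviated together (r above 0.1) in only 3 of 18 pairs and correlated best with their own number in 3 of 18. The 2-group fit could not be run for trametinib or cediranib against control or for trametinib against cediranib, since no sheath gene passed the filter. Leaving out 1 library at a time gave 0 to 6 for combination against control, against trametinib and against cediranib and for trametinib against cediranib, 0 to 1 for the interaction, and 0 for trametinib and cediranib against control. In log2 fold changes for cediranib against control, Krt25 ranged from -1.21 (without cediranib 3) to 9.32 and Krt71 from -1.65 (without cediranib 3) to 8.50. For combination against cediranib, Krt27, Krt72 and Tchh were at -0.35, -0.17 and -0.04 without cediranib 1 and at -0.36, -0.17 and -0.04 without cediranib 2, and Krt27 was at -0.20 without combination 3, with highest values of 6.57, 6.96 and 10.36 without cediranib 3. For trametinib against cediranib, Krt25, Krt72 and Tchh ranged from -9.40, -8.87 and -9.80 to 1.76, 0.30 and 1.87, the last without cediranib 3. Over all genes, no filter moved the counts of calls to 687 for trametinib against control (310 in the fit reported), 324 for cediranib against control (0), 1129 for combination against control (466), 773 against trametinib (87), 637 against cediranib (316), 973 for trametinib against cediranib (450) and 261 for the interaction (0). DESeq2 gave 10, 347 and 28 and the likelihood ratio test 14, 401 and 28 for cediranib against control, combination against trametinib and the interaction, and the latter 721 for trametinib against cediranib. For combination against trametinib the block gave 57 and the 2 groups alone 274. Leaving out 1 library moved that comparison to between 0 (without combination 2) and 208 (without cediranib 2) genes called. Combination against control moved to between 248 (without control 3) and 574 (without cediranib 2). Without a minimum fold, 789, 1287, 991 and 1116 genes were called for trametinib and combination against control and for combination and trametinib against cediranib. Apart from the replicates left out, the cause of these shifts was not tested.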

Other observations

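Several follicle genes outside the inner root sheath list, named after their values were seen, separated cediranib 1 from cediranib 3 in the same way. Krt75, the keratin most particular to the companion layer, was at 0 CPM in cediranib 1, 6.22 in cediranib 3 and 2.73, 2.27 and 6.03 in combination tumors, unlike Krt6a, Krt16 and Krt17 on its list, which were at 521, 439 and 702.5 CPM in cediranib 1. Shh, a signal made by the hair matrix, was at 0 in cediranib 1 and in all control and trametinib tumors, 1.53 in cediranib 3 and 0.303, 0.0908 and 0.371 in combination tumors. In counts this was 16 in cediranib 3 and only 3, 1 and 4 in combination tumors 1, 2 and 3. Msx2, a matrix homeobox gene, was at 0.200 and 2.30 CPM in cediranib 1 and cediranib 3 and at 3.84, 2.00 and 4.55 in combination tumors. In contrast, Sox21 (4.6 and 2.58 CPM) and Ovol1 (1.20 and 2.58 CPM) were present in both cediranib tumors. These are values of single tumors, and the difference between them was not tested.

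Gata3, a regulator of inner root sheath differentiation that is also made by other skin and immune cells, was present in all 12 tumors. It stood at 15.6, 13.4 and 15.6 CPM in combination tumors, 6.90, 4.76 and 4.04 in control, 5.18, 6.05 and 2.26 in trametinib and 6.79, 4.73 and 9.95 in cediranib tumors. It was called higher against trametinib (log2 fold change 1.73 ± 0.36, edgeR adjusted p = 0.0475). Against control it was not called. There its edgeR adjusted p was 0.0236, but its log2 fold change, 1.5 when rounded, lay just under the minimum for a call. Foxn1, the gene mutated in nude mice, was at 0.371 CPM or less in every tumor and did not pass the filter. Wnt10b, like Dlx3, was also high in trametinib tumors, at 14.1, 50.7 and 18.8 CPM, against 8.59, 3.72 and 15.3 in combination and 2.90, 1.32 and 0.505 in control tumors.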
